A study of Mus musculus with 2 samples.

Results

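A set of 9 imprinted genes, of the 23154 genes in the count tables (13206 with at least 1 count), was followed through single cells of the mouse yolk sac: *Igf2*, *H19*, *Dlk1*, *Meg3*, *Igf2r*, *Peg3*, *Grb10*, *Plagl1* and *Mest*. They were chosen by name, as imprinted genes that act on embryonic growth, with earlier results of these data known. All 9 had counts in both libraries. The cells were PK44 cells, sorted from the yolk sac at E10.0 of development as CD41-CD43-CD45-CD31+CD201+Kit+CD44+, a gate that enriches hemogenic endothelial cells, the endothelial cells from which blood arises. They formed 2 libraries of one condition, called replicates 1 and 2, with 43 and 44 cells, and no treated or mutant group was among them. Individual cells had been picked under the microscope, tagged by modified STRT-seq with a barcode for the cell and a unique molecular identifier (UMI) for each captured transcript, and deposited as UMI counts per gene and cell. Whether the libraries came from different embryos or pools of embryos was not given in the sources used here, so the spread between them may be technical.

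Replicate 1 held 8932527 counts, with a median of 141577 per cell (13218 to 702028), and replicate 2 held 12706360, with a median of 238898 per cell (51620 to 956593). No barcode was shared between the libraries. All 7 endothelial markers looked for (*Pecam1*, *Cdh5*, *Kdr*, *Tek*, *Tie1*, *Emcn*, *Cldn5*) had counts in both libraries, as did 6 of 6 hemogenic markers. Visceral endoderm, the yolk sac epithelium known for high imprinted gene expression, had 6 of its 10 markers at 0 in every cell of both libraries (*Apoa4*, *Apob*, *Rbp4*, *Cubn*, *Amn*, *Hnf4a*). *Trf* had counts in both libraries, and *Afp*, *Ttr* and *Apoa1* in replicate 2 only. The summed level of the list was 58.1 CPM (counts scaled to the same total for each library) in replicate 1, all of it *Trf*, and 77.5 in replicate 2. In all, 3 of the 87 cells (2 in replicate 1 and 1 in replicate 2) carried 100 or more counts of *Col1a1*, a collagen of mesenchymal cells, and together held 95.4% of all *Col1a1* counts. Their summed mesenchymal marker level reached 18780 CPM (replicate 1) and 20850 CPM (replicate 2), so values of the imprinted genes in the set that rested on them are given with and without them.

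Imprinted genes are transcribed mainly from the copy inherited from one parent, and many of them promote or restrain growth of the embryo and its membranes. *Igf2*, a secreted growth factor read from the paternal copy, and *H19*, a noncoding RNA read from the maternal copy, are neighbours that share enhancers, with the insulator protein CTCF directing those enhancers to one gene or the other. *Dlk1*, a Notch-related membrane protein read from the paternal copy, and *Meg3*, a noncoding RNA read from the maternal copy, are arranged in a like manner in another cluster. The counts do not distinguish the parental copies, so allelic use was not measured here.

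In GENCODE M21 on GRCm38, the build of the deposited counts (mm10), *H19* lies at chr7:142575529-142578143 and *Igf2* at chr7:142650766-142666816, both on the minus strand, and *Dlk1* lies at chr12:109452823-109463336 and *Meg3* at chr12:109541001-109571726, both on the plus strand. *Igf2r* lies at chr17:12682406-12769664 (minus), *Peg3* at chr7:6703892-6730431 (minus), *Grb10* at chr11:11930508-12038683 (minus), *Plagl1* at chr10:13060504-13131694 (plus) and *Mest* at chr6:30723547-30748465 (plus). *Igf2* overlaps exons of *Igf2os* (282 counts) and *Mest* overlaps exons of *Copg2* (535 counts) on the opposite strand, and *Airn* (473 counts) runs antisense to *Igf2r* without shared exons. The sources used here do not state that counting used the strand, so reads within these overlaps are uncertain.

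*H19*, *Igf2*, *Mest* and *Meg3* are hosts of microRNAs, which are shown because a count of the host transcript is the closest these data come to them. Mature microRNAs were not measured. In the annotation, mir-675 falls within an exon of *H19*, mir-483 within an intron of *Igf2*, mir-335 within an intron of *Mest* and mir-770 and mir-1906-1 within exons of *Meg3*. Mature sequences from RefSeq (GRCm38.p6) are given 5′ to 3′ with the seed, bases 2 to 8, in capitals, and each of the 9 seeds was different.
miR-675-5p (*H19*, chr7:142577112-142577133, minus): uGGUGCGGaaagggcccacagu
miR-675-3p (*H19*, chr7:142577078-142577099, minus): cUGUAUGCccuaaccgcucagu
miR-483-5p (*Igf2*, chr7:142654968-142654989, minus): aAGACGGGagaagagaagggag
miR-483-3p (*Igf2*, chr7:142654932-142654952, minus): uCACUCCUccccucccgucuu
miR-335-5p (*Mest*, chr6:30741314-30741336, plus): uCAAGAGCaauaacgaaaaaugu
miR-335-3p (*Mest*, chr6:30741354-30741375, plus): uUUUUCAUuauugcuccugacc
miR-770-5p (*Meg3*, chr12:109563710-109563731, plus): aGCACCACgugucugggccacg
miR-770-3p (*Meg3*, chr12:109563744-109563765, plus): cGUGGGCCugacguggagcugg
miR-1906 (*Meg3*, chr12:109544588-109544609, plus): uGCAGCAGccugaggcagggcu

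Because the relation of the members to *Runx1* was examined, their promoter windows (250 bases before to 50 bases after a transcript start, 300 bases in all, RefSeq on GRCm38.p6) were searched on both strands for TGTGGT, the core sequence bound by RUNX proteins. Of 32851 windows, 16.8% held it, and of the 15 windows of the 8 matched members 2 did, those of *Dlk1* and *Meg3*. The windows are printed 5′ to 3′ on the strand of the gene, with the match in capitals (its reverse complement in *Meg3*).
*Dlk1* (chr12:109452573-109452872, plus): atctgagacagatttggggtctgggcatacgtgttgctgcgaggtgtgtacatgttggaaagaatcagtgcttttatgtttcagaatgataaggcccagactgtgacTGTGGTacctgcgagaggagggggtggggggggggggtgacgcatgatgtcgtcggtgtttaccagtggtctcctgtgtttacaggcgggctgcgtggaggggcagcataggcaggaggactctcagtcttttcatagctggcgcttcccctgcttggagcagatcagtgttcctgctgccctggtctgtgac
*Meg3* (chr12:109540746-109541045, plus): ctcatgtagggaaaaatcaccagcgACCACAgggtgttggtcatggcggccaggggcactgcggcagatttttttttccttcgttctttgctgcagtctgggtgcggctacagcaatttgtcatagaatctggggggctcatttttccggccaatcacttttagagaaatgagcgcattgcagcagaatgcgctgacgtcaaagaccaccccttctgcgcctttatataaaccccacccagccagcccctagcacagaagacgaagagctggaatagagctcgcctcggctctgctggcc
The palindrome GGGGCCCC, a sequence bound by PLAGL1, was found in 1.08% of all windows and in 1 of the 15 member windows, that of *Peg3*. A match describes the letters only, and *H19* had no window to search.

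*Igf2* and *H19* were among the most abundant transcripts of the yolk sac PK44 cells and were counted in every cell (87 of 87, exact 95% interval from 95.8% to 100%, counting error only). *Igf2* reached 3146 CPM in replicate 1 against 5124 CPM in replicate 2 (4135 ± 1398, SD, n = 2 libraries), which placed it 15th and 5th among all genes. The level of *H19* was 2930 CPM and 4663 CPM (3796 ± 1226, SD, n = 2), which placed it 18th and 8th. Together they made up 0.608% of the counts of replicate 1 and 0.979% of those of replicate 2. As 1 UMI was counted per captured 3′ end, levels were not divided by transcript length, also where genes are compared below.

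Single cells differed widely around these levels. In replicate 1 *Igf2* ran from 146 CPM through a median of 2415 CPM to 8786 CPM, and in replicate 2 from 668 CPM through 4298 CPM to 16955 CPM. *H19* ran from 277 CPM through 2631 CPM to 8189 CPM in replicate 1 and from 967 CPM through 4369 CPM to 14850 CPM in replicate 2. The cells of both libraries overlapped over most of this range. Leaving out the 3 cells rich in *Col1a1* gave 3039 and 5069 CPM for *Igf2* and 2816 and 4593 CPM for *H19*.

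**Figure D1:**
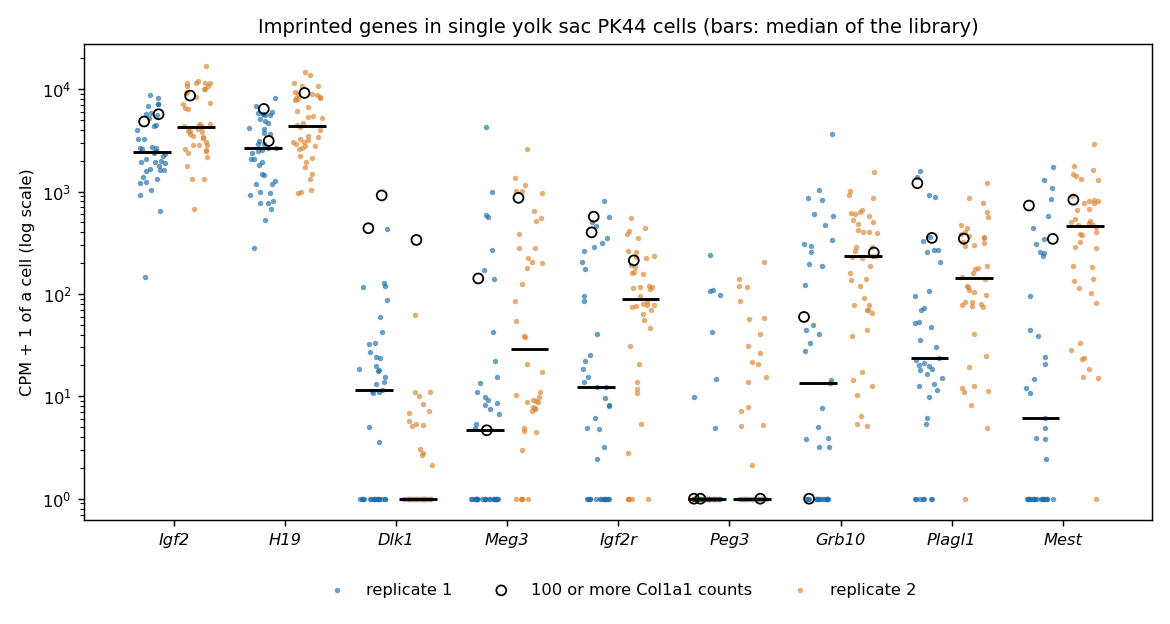
Levels of the 9 imprinted genes in single cells of replicate 1 (blue, 43 cells) and replicate 2 (orange, 44 cells), as CPM + 1 on a log axis, with bars at the library medians and open circles for the 3 cells with 100 or more *Col1a1* counts. *Igf2* and *H19* lie above 100 CPM in every cell, while the other 7 genes have cells at 0, and 3 of the 4 highest *Dlk1* values belong to the circled cells.

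The partner cluster was far lower and uneven. *Dlk1* reached 78.1 CPM in replicate 1 but 7.16 CPM in replicate 2 (42.7 ± 50.2, SD, n = 2), with a count in 27 of 43 and 16 of 44 cells. Only 9 of 87 cells had 10 or more *Dlk1* counts (10.3%, exact 95% interval 4.84% to 18.7%), 8 in replicate 1 and 1 in replicate 2. The 3 cells rich in *Col1a1* carried 437, 915 and 335 CPM of *Dlk1* and 47.0% of all its counts. Without them *Dlk1* stood at 45.9 CPM and 2.08 CPM, and no remaining cell of replicate 2 reached 10 counts. The part that mesenchymal RNA played in the remaining *Dlk1* counts was not tested.

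*Meg3* reached 181 CPM in replicate 1 against 213 CPM in replicate 2 (197 ± 22.6, SD, n = 2), close in the libraries as a whole but not in their cells. In replicate 1 it had a count in 22 of 43 cells, with a median of 3.66 CPM, and a single cell with 1107 counts (4254 CPM) held 68.3% of the *Meg3* counts of the library. Without that cell, a choice made after its value was seen, *Meg3* stood at 59.3 CPM in replicate 1. In replicate 2, 39 of 44 cells had a count, the median was 28.3 CPM, the highest cell stood at 2622 CPM, and no cell held more than 20.1% of the counts. *Meg3* thus rested on 1 cell in replicate 1 and on many in replicate 2, where 22 cells had 10 or more counts against 8 in replicate 1.

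Cells with many counts of both *Dlk1* and *Meg3* were rare: 2 in replicate 1 and 1 in replicate 2 had 10 or more of each, and without the cells rich in *Col1a1* 1 and 0 remained. Across the cells of a library, *Dlk1* and *Meg3* had a Spearman rho of 0.30 in replicate 1 (43 cells) and 0.22 in replicate 2 (44 cells). With each cell thinned to 20000 counts these became -0.01 and 0.34 (42 and 44 cells), where a count of *Dlk1* remained in few cells.

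*Igf2r* is the maternally expressed receptor that takes up IGF2 for degradation. Among the receptors and adaptors of the IGF pathway, its summed levels were closest between libraries, 131 CPM and 130 CPM (130 ± 0.670, SD, n = 2). The match includes the cells rich in *Col1a1*, which carried 398 and 568 CPM of *Igf2r* (replicate 1) and 212 CPM (replicate 2). Single cells were less alike, with a count of *Igf2r* in 30 of 43 and 39 of 44. With cells divided at the library median of *Runx1*, median *Igf2r* was 7.04 CPM above it and 13.7 CPM at or below it for replicate 1. For replicate 2 these medians were 72.4 and 138 CPM. *Grb10*, an adaptor that restrains signalling by insulin and IGF1 receptors, was counted at 115 CPM and 273 CPM (194 ± 112, SD, n = 2), in 28 of 43 and in all 44 cells. Its cells ranged from 0 to 3626 CPM around a median of 12.4 CPM in replicate 1 and from 4.14 to 1548 CPM around 232 CPM in replicate 2.

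*Plagl1*, a paternally expressed zinc finger factor that acts on other imprinted genes, stood at 162 CPM and 197 CPM (180 ± 24.5, SD, n = 2), in 36 of 43 and 43 of 44 cells. In replicate 1, 25.8% of its counts came from the 2 cells rich in *Col1a1*, and without them its level there was 126 CPM. *Peg3*, another paternally expressed zinc finger gene, was the lowest member, at 17.7 CPM and 19.5 CPM (18.6 ± 1.29, SD, n = 2), with a count in 8 of 43 and 19 of 44 cells and none in the cells rich in *Col1a1*. *Mest*, a paternally expressed gene of the hydrolase family, differed 3.01-fold between the libraries, at 176 CPM and 529 CPM (352 ± 250, SD, n = 2). Its median cell stood at 5.11 CPM in replicate 1, where 3 cells held 70.4% of the counts, and at 461 CPM in replicate 2.

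Ordered by mean level, the members ran *Igf2*, *H19*, *Mest*, *Meg3*, *Grb10*, *Plagl1*, *Igf2r*, *Dlk1* and *Peg3*. The values of the libraries overlapped between neighbours in this order except in 3 places, between *H19* and *Mest*, between *Plagl1* and *Igf2r*, and between *Igf2r* and *Dlk1*. Depth touched the shares of cells with a count: after thinning to 20000 counts per cell (86 cells, 1 left out), a count remained in 100% of cells for *Igf2* and *H19*, and in 68.6% for *Plagl1*, 64.0% for *Mest*, 61.6% for *Grb10*, 48.8% for *Igf2r*, 37.2% for *Meg3*, 17.4% for *Dlk1* and 16.3% for *Peg3*. Before thinning the last 3 shares were 70.1%, 49.4% and 31.0% of 87 cells.

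*Igf2* and *H19* varied together from cell to cell. Their Spearman rho was 0.55 across the 43 cells of replicate 1 and 0.76 across the 44 cells of replicate 2, and it stayed at 0.53 and 0.76 without the cells rich in *Col1a1*, at 0.52 and 0.76 after thinning, and at 0.56 and 0.74 with the total count of the cell held constant. These are descriptions, since cells of a library share its preparation and a CPM is a share of one total. The ratio of *H19* to *Igf2* had a median of 1.02 in replicate 1 and 0.952 in replicate 2, and it lay within 2-fold of equality in 29 of 43 and 41 of 44 cells. The extremes were 0.0529 and 6.83, both in replicate 1, so the pair also came apart in single cells.

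**Figure D2:**
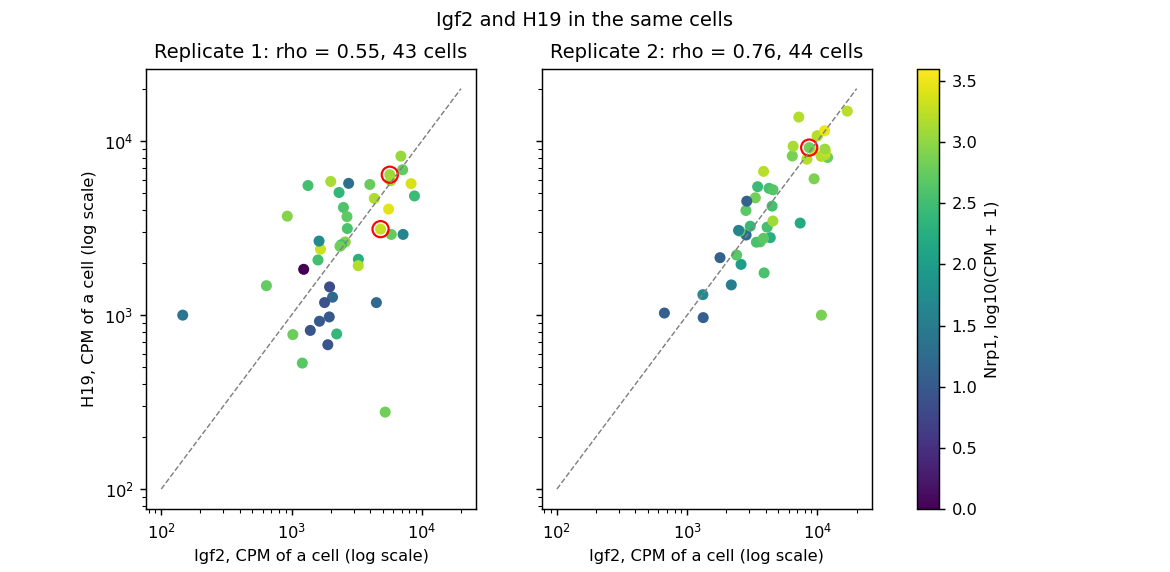
*H19* against *Igf2* in the same cells, both as CPM on log axes, for replicate 1 (left) and replicate 2 (right), coloured by log10(CPM + 1) of *Nrp1*, with a dashed line of equal levels and red rings on the 3 cells rich in *Col1a1*. Points follow the line more tightly in replicate 2 (rho 0.76) than in replicate 1 (rho 0.55), and cells with little *Nrp1* lie mostly in the lower part.

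Of the 36 pairs of members, 31 had a rho above 0 in both libraries and 0 had one below 0 in both. The median pair stood at 0.23 (replicate 1) and 0.22 (replicate 2). Without the cells rich in *Col1a1*, 30 pairs were above 0 in both libraries, and after thinning 27 were. *Igf2* was positively related to each of the 8 other members in both libraries, and so was *Meg3*, whereas *Dlk1* was so related to 4 of 8. Of 4119 genes that were no members, 23.3% had a rho above 0 with *Igf2* in both libraries, 27.8% with *Meg3* and 40.5% with *Dlk1*, so the share for *Dlk1* was near that of other genes. By the mean of both libraries, the closest pairs after *Igf2* with *H19* were *H19* with *Plagl1* (0.38 and 0.71), *Igf2* with *Meg3* (0.60 and 0.39), *Meg3* with *Plagl1* (0.40 and 0.49) and *Meg3* with *Peg3* (0.52 and 0.36), while *Igf2* and its receptor *Igf2r* stood at 0.33 and 0.14.

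The genes most like each of the first members in pattern were picked by the lower of their Spearman rho values in the libraries, over 4119 genes with a count in at least 20 cells of each library. For *Igf2* they were *Acer2*, a ceramidase (0.61 and 0.72), *Vwf*, von Willebrand factor of endothelium (0.57 and 0.69), and *Col18a1*, a basement membrane collagen (0.54 and 0.69). For *H19* they were *Col5a2* (0.52 and 0.73), *Ttyh3* (0.50 and 0.50) and *Nrp1*, a co-receptor for VEGF and semaphorins (0.48 and 0.77). For *Meg3* they were *Anxa2* (0.50 and 0.44), *Vwf* (0.44 and 0.42) and *Cald1* (0.45 and 0.42), and for *Dlk1*, with lower values, *Eif3g* (0.41 and 0.37), *Col1a2* (0.36 and 0.40) and *Atp6v1d* (0.34 and 0.37). Without the cells rich in *Col1a1* (3851 genes compared), *Tek*, the angiopoietin receptor, came among the 3 closest to *Igf2* (0.65 and 0.58) and to *Meg3* (0.43 and 0.44), *Sparc* among those of *H19* (0.48 and 0.54), and *Tsn* and *Tbrg4* replaced *Eif3g* and *Col1a2* for *Dlk1* (0.47 and 0.39, and 0.37 and 0.45).

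Endothelial genes stood on the same side as most members. *Nrp1* had a rho above 0 with 7 of the 9 members in both libraries, beside 19.2% of the genes that were no members, reaching 0.40 and 0.78 with *Igf2*. *Gja5*, a gap junction gene of arterial endothelium, was above 0 with 6 of 9 beside 31.1% of genes, reaching 0.53 and 0.71 with *Igf2*. *Cdh5* and *Kdr* were each above 0 with 7 of 9, beside 17.4% and 16.8% of genes, *Kdr* reaching 0.41 and 0.58 with *Grb10*. In contrast, *Kit* was below 0 in both libraries with 7 of 9 members beside 13.2% of genes, and *Spi1*, a myeloid transcription factor, with 6 of 9 beside 15.0%. The hematopoietic gene *Gfi1* took no single side, at 0.07 and 0.06 with *Igf2*, 0.17 and 0.01 with *Dlk1* and -0.18 and -0.21 with *Igf2r*. With the other members its sign differed between the libraries. The proliferation gene *Mki67* was below 0 with 4 of 9 beside 12.4% of genes and above 0 with 1 of 9 beside 41.4%. *Top2a*, another proliferation gene, was below 0 in both libraries only with *Igf2* (-0.21 and -0.20). It was above 0 in both with *Igf2r* (0.28 and 0.04) and *Plagl1* (0.0024 and 0.00085).

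**Figure D3:**
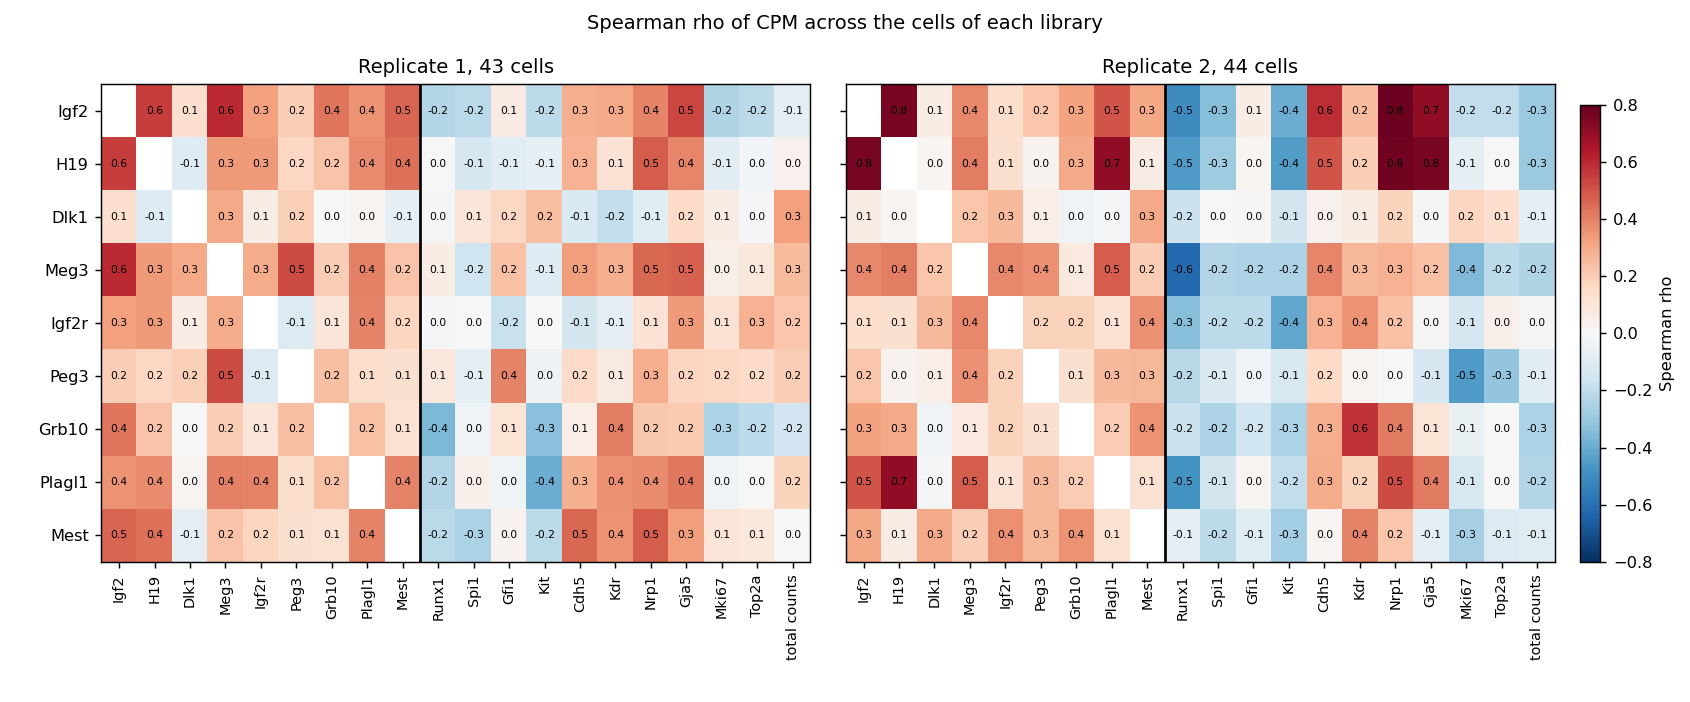
Spearman rho of CPM across the 43 cells of replicate 1 (left) and the 44 cells of replicate 2 (right) for the 9 members (rows) with each other, with hematopoietic, endothelial and proliferation genes and with the total count of the cell (columns, right of the black line). Red is above 0 and blue below 0, and the block of members is red in most places, as are the columns of *Nrp1* and *Gja5* for *Igf2* and *H19*.

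*Runx1*, the transcription factor required for blood to emerge from hemogenic endothelium, ran against the members in replicate 2 and only weakly in replicate 1. The rho with *Runx1* was below 0 for 9 of 9 members in replicate 2 and for 7 of 9 in replicate 1, the same 7 of 9 being below 0 in both. Among genes that were no members, 29.2% were below 0 with *Runx1* in replicate 2, 24.1% in replicate 1 and 11.4% in both. Taken from the members instead, the share of such genes below 0 in both libraries was higher for most. It ran from 11.9% with *Dlk1* to 38.9% with *Igf2* and 43.6% with *Grb10*. For *Igf2* the rho with *Runx1* was -0.23 in replicate 1 and -0.51 in replicate 2, for *Plagl1* -0.23 and -0.48, and for *Grb10* -0.36 and -0.17. It was -0.22 and -0.08 for *Mest*, -0.02 and -0.34 for *Igf2r*, and 0.09 and -0.22 for *Peg3*. *H19* stood at -0.0025 and -0.46, *Dlk1* at -0.01 and -0.17, and *Meg3* at 0.06 and -0.62, the widest difference between the libraries. After thinning *Meg3* stood at -0.17 and -0.45 and *H19* at -0.14 and -0.48. Without the cells rich in *Col1a1*, *H19* (0.04), *Dlk1* (0.03) and *Igf2r* (0.04) turned above 0 in replicate 1. *Igf2* (-0.19), *Plagl1* (-0.19), *Grb10* (-0.37) and *Mest* (-0.18) stayed below 0 there, and all members did in replicate 2. The counts of members and the shares of other genes above include those cells.

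**Figure D4:**
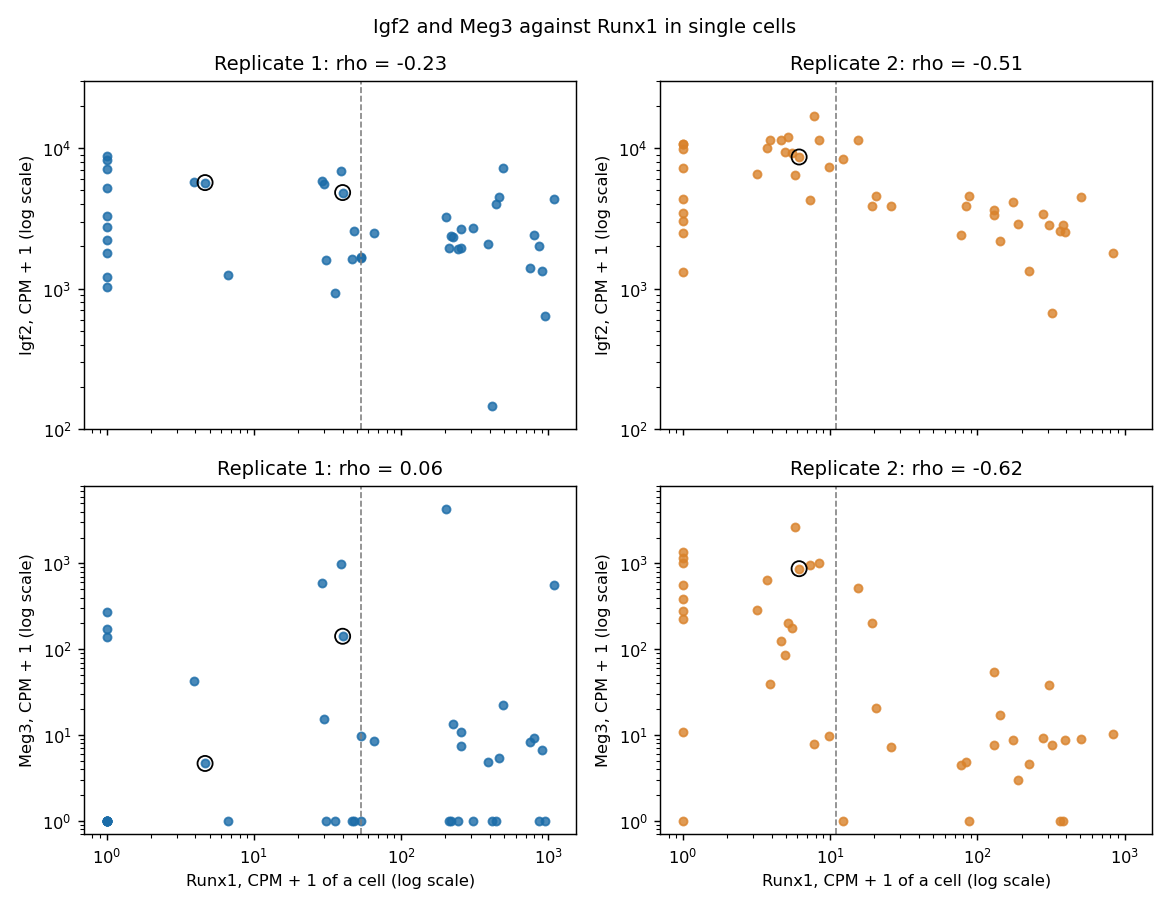
*Igf2* (top) and *Meg3* (bottom) against *Runx1* in the cells of replicate 1 (left, blue) and replicate 2 (right, orange), as CPM + 1 on log axes, with a dashed line at the library median of *Runx1* and rings on the 3 cells rich in *Col1a1*. In replicate 2 most cells right of the line lie low for both genes (rho -0.51 and -0.62), while in replicate 1 the cell with most *Meg3* lies right of the line.

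To set this against the spread between libraries, cells of each library were split at its own median of *Runx1* (52.2 CPM for replicate 1, 10.03 CPM for replicate 2), and their counts were summed, giving 4 sums. The *Runx1*-high groups held 21 and 22 cells and the *Runx1*-low groups 22 and 22, with 7 of 43 and 5 of 44 cells within 1.5-fold of the split. A *Runx1*-high cell of replicate 2 could rest on 1 count of *Runx1* (5 of its 22 such cells had fewer than 5), while a *Runx1*-low cell of replicate 1 held up to 13 counts, so the groups of the libraries were not alike in *Runx1*. All 3 cells rich in *Col1a1* were *Runx1*-low. Depth moved with the split, the median cell holding 260240 counts in *Runx1*-high against 95376 in *Runx1*-low cells of replicate 1, and 271734 against 213444 in replicate 2. The summed level of the 7 endothelial markers was 1432 CPM in *Runx1*-high against 3309 CPM in *Runx1*-low cells of replicate 1 and 2678 against 5039 CPM in replicate 2, that of the 10 mesenchymal markers 73.3 against 2458 CPM and 29.6 against 828 CPM. The part of the endothelial difference in the values of the imprinted genes was not tested, and values without the cells rich in *Col1a1* are given with the tests.

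In both libraries, 8 of the 9 members had a lower level in *Runx1*-high than in *Runx1*-low cells, all but *Meg3*, beside 25.5% of all genes tested. For *Dlk1* in replicate 1 this rested on the cells rich in *Col1a1*, which held 56 and 250 of its 355 *Runx1*-low counts. *Igf2* stood at 2456 CPM in *Runx1*-high and 4399 CPM in *Runx1*-low cells of replicate 1, and at 3037 and 8233 CPM in replicate 2. *H19* stood at 2250 and 4164 CPM in replicate 1 and at 2930 and 7245 CPM in replicate 2. *Plagl1* stood at 64.4 and 340 CPM in replicate 1 and at 114 and 321 CPM in replicate 2. For these 3 genes both *Runx1*-high sums lay below both *Runx1*-low sums.

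*Mest* stood at 31.8 CPM in *Runx1*-high and 437 CPM in *Runx1*-low cells of replicate 1, and at 453 and 643 CPM in replicate 2, so its difference was mostly that of replicate 1. *Grb10* showed the like shape, at 49.1 and 234 CPM in replicate 1 and 242 and 319 CPM in replicate 2. Most of the 1388 *Mest* counts in *Runx1*-low cells of replicate 1 came from 3 cells, with 592, 315 and 199 counts. The last of these was rich in *Col1a1*. *Meg3* went opposite ways, at 224 CPM in *Runx1*-high against 105 CPM in *Runx1*-low cells of replicate 1 and at 20.1 against 501 CPM in replicate 2. The cell of replicate 1 with most *Meg3* was a *Runx1*-high cell (200 CPM of *Runx1*), and without it the other *Runx1*-high cells of replicate 1 stood at 33.1 CPM of *Meg3*.

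**Figure D5:**
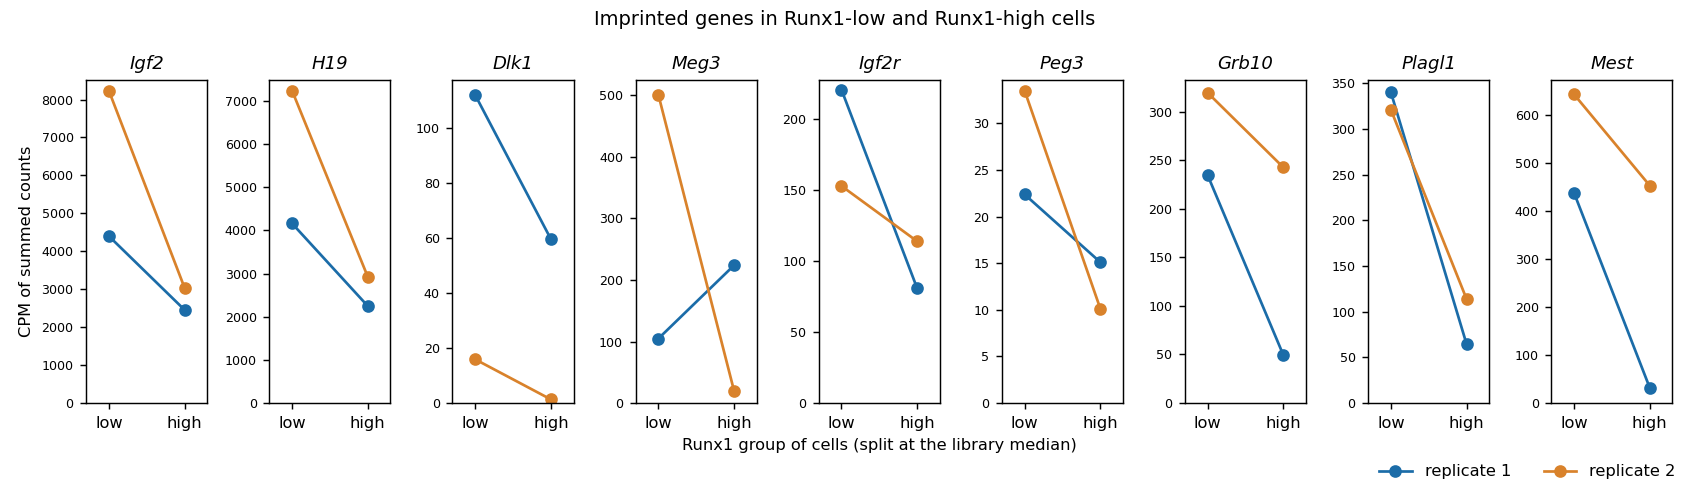
Levels of the 9 members in the summed counts of *Runx1*-low and *Runx1*-high cells, as CPM on linear axes that start at 0, with a line joining the sums of replicate 1 (blue) and of replicate 2 (orange). Every line falls from low to high except that of *Meg3* in replicate 1, where 1 cell holds most of the counts. The cells rich in *Col1a1* are included, and the fall of *Dlk1* in replicate 1 rests on them.

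By edgeR's quasi-likelihood test over the 4 sums, with Benjamini-Hochberg adjustment over 10629 genes, 0 of the 9 members passed an adjusted p of 0.05, beside 0.00941% of all genes tested (1 gene, *Col1a1*, at a log2 fold change of -5.66). Their log2 fold changes of *Runx1*-high over *Runx1*-low were -1.22 for *Igf2* (SE 0.36, adjusted p = 0.720), -1.16 for *H19* (SE 0.35, adjusted p = 0.720) and -1.93 for *Plagl1* (SE 0.46, adjusted p = 0.663) by the same edgeR test. The other 6 lay between -1.32 for *Meg3* and -0.96 for *Grb10*, with adjusted p from 0.905 to 1.00. At an unadjusted p under 0.05, 3 of 9 members passed (*Igf2*, *H19* and *Plagl1*) beside 5.53% of genes. DESeq2, as another tool on the same sums, called 2 of 9, *Igf2* (adjusted p = 0.0408) and *Plagl1* (adjusted p = 0.00988), beside 0.825% of genes called lower. The members' median was -1.17, against -0.01 over all genes tested, and 9 of 9 lay below 0 beside 50.3% of genes. Among these, *Dlk1* lay above 0 without the cells rich in *Col1a1*, as given below. In 5 of 9 members (*Igf2*, *H19*, *Igf2r*, *Peg3* and *Plagl1*) both *Runx1*-high sums lay below both *Runx1*-low sums in CPM, which was so in 17.1% of all genes tested. With CPM scaled by edgeR's TMM factors this held for 7 of 9, with *Mest* and *Grb10* added, beside 17.9% of genes.

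The sums of a library come from the same preparation, and with the library as a block edgeR called 166 genes, 126 of them lower in *Runx1*-high cells (1.19% of genes tested), among which were 4 of the 9 members. *Mest* fell by 2.15 on the log2 scale (SE 0.39, adjusted p = 2.44e-05 by edgeR), *Plagl1* by 1.98 (SE 0.42, adjusted p = 0.000566), *Igf2* by 1.17 (SE 0.22, adjusted p = 2.46e-05) and *H19* by 1.13 (SE 0.22, adjusted p = 8.13e-05). The fall of *Mest* includes the few *Runx1*-low cells of replicate 1 that held most of its counts there. With so few sums, these SE and p-values rest mostly on dispersion shared over genes and are no measure of how the libraries differ. For *Mest* they differed widely, at 31.8 against 437 CPM in replicate 1 and 453 against 643 CPM in replicate 2 (*Runx1*-high against *Runx1*-low). *Grb10* (-1.35, adjusted p = 0.0789 by edgeR), *Meg3* (-1.79, adjusted p = 0.108), *Dlk1* (-2.18, adjusted p = 0.432), *Igf2r* (-0.97, adjusted p = 0.555) and *Peg3* (-1.18, adjusted p = 0.991) did not pass. With the block, without the cells rich in *Col1a1* and with the other cells kept in their groups, the same 4 members passed beside 1.05% of genes called lower, *Grb10* did not (-1.45, adjusted p = 0.0702 by edgeR), and *Dlk1* turned to 0.24. With the median split made again among the remaining cells, which moved single cells between groups, *Grb10* passed as well (-1.81, adjusted p = 0.0144 by edgeR), beside 1.12% of genes called lower. With the block and a split made separately among the shallower and the deeper cells of each library, *Meg3* (-2.42, adjusted p = 3.73e-06 by edgeR) and *Mest* (-1.69, adjusted p = 0.00201) passed, beside 0.384% of genes called lower, and *Igf2*, *H19* and *Plagl1* did not. That split placed the replicate 1 cell with most *Meg3* among the *Runx1*-low cells, and with this cell left out 0 of the 9 members passed, *Meg3* standing at -1.23 (adjusted p = 0.756 by edgeR) and *Mest* at -1.69 (adjusted p = 0.176), beside 0.112% of genes called lower. With the block, the split of all cells and only this cell left out, *Meg3* stood at -3.18 (adjusted p = 1.55e-06 by edgeR), so its call turned on where that cell was counted. These combined settings were chosen after the data had been seen.

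Of 49 other imprinted genes listed, 40 had a count and 33 were tested. Those with the highest levels were *Gnas*, the stimulatory G protein subunit (1345 ± 119 CPM, SD, n = 2), *Cd81* (471 ± 228), *Kcnq1ot1*, a noncoding RNA of the cluster next to *Igf2* (398 ± 161), *Nap1l4* (213 ± 2.21) and *Cdkn1c*, a cell cycle inhibitor (185 ± 26.8). Of the 48 with a row, 8 were at 0 in every cell, among them *Rtl1* and *Dio3* of the *Dlk1* cluster and *Snrpn*. By edgeR 0 of the 33 passed (3 at an unadjusted p under 0.05, beside 5.53% of all genes tested). A log2 fold change below 0 was found in 26, beside 50.3% of genes, and the median was -0.54. Most thus lay on the same side as the 9 members, with single values from -7.44 to 5.33. These values include the 3 cells rich in *Col1a1*, all of them *Runx1*-low. The list was not summarized without them, so their part in this was not tested. With the library as a block 1 passed, beside 1.19% of genes called lower. This was *Nnat* (-3.44, adjusted p = 1.53e-06 by edgeR), for which 79.7% of the counts came from the 3 cells rich in *Col1a1*. DESeq2, which tested all 40 with a count, called 3 of them lower in *Runx1*-high cells, *Nnat*, *Asb4* and *Ano1*, beside 0.825% of genes. Of the *Asb4* counts 36.3%, and of the *Ano1* counts 48.9%, came from the same 3 cells rich in *Col1a1*.

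Of 22 other genes of the IGF pathway, 18 had a count and 17 were tested, and 0 passed by edgeR with or without the block, nor did any by DESeq2 (0 of 18 called). In either edgeR fit 1 stood at an unadjusted p under 0.05, beside 8.66% of genes with the block and 5.53% without it. *Igfbp4*, a secreted IGF binding protein, was the most abundant at 995 and 1507 CPM, followed by *Igf2bp1* (269 and 263 CPM), an RNA-binding protein that attaches to *Igf2* transcripts, by *Igfbp3* (161 and 173 CPM), by *Igf2bp2* (201 and 127 CPM), a relative of *Igf2bp1*, and by the kinase *Akt1* (150 and 173 CPM). Of 12 genes that maintain imprints, 11 had a count. *Atrx* (568 and 447 CPM), *Trim28* (369 and 390 CPM), *Hells* (319 and 335 CPM), *Dnmt1* (301 and 272 CPM) and *Ctcf* (391 and 140 CPM) led, and *Dppa3*, a factor of germ cells and early embryos, had no count. None of the 11 passed by edgeR with or without the block (0 at an unadjusted p under 0.05) or by DESeq2 (0 called), and their median log2 fold change was -0.16.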

How the data were processed

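Count tables of replicate 1 (43 cells) and replicate 2 (44 cells), were used as deposited. Per the study's methods, the authors split reads by cell barcode, aligned them to the mm10 transcriptome with HISAT2 2.1.0, counted uniquely mapped reads with HTSeq, kept 1 count per UMI and gene, and filtered cells by reads, genes and transcripts. The deposited counts are therefore raw transcripts per gene and cell. Duplicates left by UMI errors, and 3′ ends shared by neighbouring genes, could change them. Doublets were not called again, since the authors left out cells whose read or gene numbers were too high. All 87 cells were kept.

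Levels are CPM of summed counts, or of a cell where stated. The 95% intervals on shares of cells are exact (Clopper-Pearson) and hold only the error of counting. Spearman correlations were made within a library and are given without p-values. For thinning, each cell was drawn down to 20000 counts. Counts of *Runx1*-high cells (CPM above the median of the library) and *Runx1*-low cells were summed per library and compared by the quasi-likelihood test of edgeR 4.0.16 under R 4.3.3, after filterByExpr and TMM scaling, with p-values adjusted by Benjamini-Hochberg and called at 0.05. A count of members is read against the percentage of all genes tested that met the same criterion.

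The sums of a number come from the same library, which pairs them. Over 10630 genes, themselves no independent replicates, deviations from the group means had a correlation of 0.197. The study's methods compare clusters by tests over cells and name no block. The split by *Runx1*, the sums and the fit without a block were chosen here, with the block as an alternative. Further alternatives were another split, thinning, omission of cells rich in *Col1a1* or of a library, median-of-ratios size factors, all genes without a filter, and DESeq2 1.42.0. The steps were tested on simulated counts. For edgeR the planted changes were larger than those of the members without the block, so recovery of changes of their size was not shown. Genes named are the 9 members, the 3 genes closest to each of *Igf2*, *H19*, *Dlk1* and *Meg3*, the 5 highest and any called genes of each list, reference genes and markers. The members and lists were chosen with earlier results of these data known. Tables and figures came from matplotlib 3.10.9, scipy 1.17.1, pandas 2.3.3 and numpy 2.4.6 under Python 3.11.15. The tables of cell barcodes hold no measurement and served only to compare barcodes.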

Additional observations from a re-analysis of the deposited data

How the results depend on the processing

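The number of genes called between *Runx1*-high and *Runx1*-low cells depended most on the library term: 1 without it and 166 with the replicate block. DESeq2 called 140 and edgeR without a low-count filter 67, while edgeR called 2 with thinned cells and 0 without the cells rich in *Col1a1* (555 genes at an unadjusted p under 0.05), with the top 14 against the bottom 14 cells of each library by *Runx1* (632) and with the split made separately among shallower and deeper cells (343). With the block it called 149 without the cells rich in *Col1a1*, 51 with the split by depth, 45 with thinned cells and 194 without the replicate 1 cell with most *Meg3*, combinations added after the data had been seen. Leaving out cells meant that the median split was made again. With the other cells kept in their groups, also added after the data had been seen, it called 136 with the block without the cells rich in *Col1a1* (0 without the block, 556 at an unadjusted p under 0.05), 175 without the *Meg3* cell, and 12 with the split by depth without the *Meg3* cell. Fold changes are given as log2 with adjusted p. *Igf2* passed with the block (-1.17, 2.46e-05), with DESeq2 (-1.25, 0.0408), and with the block without the *Meg3* cell (-1.23, 3.94e-07), without the cells rich in *Col1a1* (-1.15, 0.000355) and with thinned cells (-0.83, 0.000665). *H19* passed with the block (-1.13, 8.13e-05) and, with it, without the *Meg3* cell (-1.19, 1.68e-06), without the cells rich in *Col1a1* (-1.11, 0.000826) and with thinned cells (-0.69, 0.0160). *Plagl1* passed with the block (-1.98, 0.000566), with DESeq2 (-1.96, 0.00988), without the filter (-1.92, 0.0351) and, with the block, without the *Meg3* cell (-2.04, 0.000238), without the cells rich in *Col1a1* (-1.76, 0.0160) and with thinned cells (-2.04, 0.0499). *Mest* passed with the block (-2.15, 2.44e-05) and, with it, without the *Meg3* cell (-2.60, 4.15e-07), without the cells rich in *Col1a1* (-2.05, 0.000313) and with the split by depth (-1.69, 0.00201). *Meg3* passed with the block without that cell (-3.28, 3.48e-07) and with the split by depth (-2.42, 3.73e-06), and *Grb10* with the block without the cells rich in *Col1a1* (-1.81, 0.0144). The split by depth moved that cell to *Runx1*-low, and without it *Meg3* (-1.23, 0.756) and *Mest* (-1.69, 0.176) did not pass. With groups kept and the block, *Igf2* (-1.16, 2.36e-05), *H19* (-1.10, 0.000107), *Plagl1* (-1.78, 0.0129) and *Mest* (-2.12, 0.000107) passed without the cells rich in *Col1a1*, as did *Igf2* (-1.18, 2.09e-06), *H19* (-1.12, 1.47e-05), *Plagl1* (-1.95, 0.000876), *Mest* (-2.51, 1.94e-06) and *Meg3* (-3.18, 1.55e-06) without the *Meg3* cell, while *Grb10* did not without the cells rich in *Col1a1* (-1.45, 0.0702). *Dlk1* changed sign without the cells rich in *Col1a1*, to 1.51, and to 0.28 with the block as well (1.48 and 0.24 with groups kept).

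Leaving out either library left 1 value and no test. The log2 fold changes then lay between -1.44 and -0.89 for *Igf2*, -1.31 and -0.94 for *H19*, -3.27 and -0.96 for *Dlk1*, -4.61 and 1.04 for *Meg3*, -1.50 and -0.42 for *Igf2r*, -1.69 and -0.61 for *Peg3*, -2.29 and -0.40 for *Grb10*, -2.44 and -1.49 for *Plagl1* and -3.82 and -0.50 for *Mest*, with *Meg3* at 1.04 without replicate 2. Levels moved by more than the spread between libraries for *Meg3* (231 CPM as a mean of single cells, 136 CPM without the replicate 1 cell with most *Meg3*), *Plagl1* (222 CPM as a mean of single cells) and *Igf2r* (121 CPM without the cells rich in *Col1a1*, 128 CPM as a mean of single cells or with median-of-ratios size factors, 132 CPM without the *Meg3* cell), and the mean rho of *Dlk1* and *Meg3* moved to 0.16 with thinned cells. The cause of these changes was not tested. With 2 libraries the spread rests on 1 difference per group, and for *Dlk1* and *Peg3* the depth leaves most cells at 0 or a few counts.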

Other observations

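The replicate 1 cell that held most *Meg3* counts also held 197 of the 220 counts of *Rian* in its library (89.5%), a noncoding RNA just downstream of *Meg3* that was chosen here after its values had been seen. *Rian* stood at 757 CPM in that cell and at 24.6 CPM in the library, and only 4 of 43 cells had a count of it. The same cell carried 434 CPM of *Dlk1*, 3251 CPM of *Igf2*, 1921 CPM of *H19*, 1111 CPM of *Cdh5* and 1545 CPM of *Nrp1*, beside 200 CPM of *Runx1*, over 260240 counts in all. In replicate 2, *Rian* stood at 14.6 CPM, with a count in 7 of 44 cells, 1 of which held 57.8% of its counts.

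*Airn*, the noncoding RNA antisense to *Igf2r*, also sat in few cells, with a count in 5 of 43 cells of replicate 1, where 1 cell held 86.2% of its 312 counts, and in 10 of 44 cells of replicate 2, where no cell held more than 26.1% of its 161 counts.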
